A study of Mus musculus with 48 samples.

Results

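P-TEFb, the kinase that flavopiridol inhibits, joins Cdk9 to 1 of the T-type cyclins encoded by Ccnt1 and Ccnt2. It phosphorylates RNA polymerase II and the factors that hold the enzyme paused near promoters, which lets transcription proceed into the gene. Much of the kinase is kept inactive by the Hexim1 protein on the small nuclear RNA 7SK, a particle that Larp7 stabilizes, whereas Aff4 and Ell2 belong to the super elongation complex that brings active kinase to genes. Cdk12 and Cdk13 are related kinases that pair with cyclin K and act on polymerase during elongation. The 9 genes described here are these kinases and their regulators. They were chosen by name and matched from the gene identifiers to mouse symbols, out of 23786 identifiers with a symbol among 23862 listed.

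The cells were E14TG2a, a line of mouse embryonic stem cells kept in 2i and LIF medium, with no genetic alteration named in the labels. All groups received 1 µM flavopiridol, and the data hold 3 replicates from independent passages at 30, 60, 120 and 240 min in each of 4 fractions, 48 libraries of polyadenylated RNA in all. The fractions were the whole-cell extract (total), the cytosol released by digitonin, the membrane fraction released by NP-40, and the nuclear pellet cleared through sucrose. The harvest buffers of all groups contained cycloheximide, an inhibitor of translation. Each value is a ratio of a gene's level to that at 0 min in its own fraction, and 1 stands for no change. The 0 min libraries were not analysed here.

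The files list between 15067 and 19501 genes per library and give no counts, so read depth is unknown and no counting error is stated. No listed ratio is 0, and why a gene is missing from a library is not known from the files. Ratios carry no expression level, so the purity of the fractions could not be read from them, and a loss of cells cannot be told apart from a loss of RNA per cell. The cell type could be checked only by whether its markers were listed, which says nothing of their level. Of 8 markers of mouse embryonic stem cells, 6 were listed in all 48 libraries, among them Pou5f1, Sox2 and Nanog, and Esrrb was listed in 37. Markers of other lineages were also listed, with Tubb3 and Eomes in 48, Sox1 in 47, T in 46, Mixl1 in 44 and Gata6 in 42 libraries, and the remaining 6 of 12 in at most 7. A pair of libraries stood apart in their median ratio over genes: nucleus at 30 min replicate 1 had 0.592, where the other replicates had 0.949 and 0.823, and total at 120 min replicate 1 had 0.502, where the others had 0.606 and 0.612. Of the 9 genes, 8 were listed in all 48 libraries and could be tested. Cdk9 was listed in 34 of 48 and in all 12 libraries of no fraction.

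**Figure D1:**
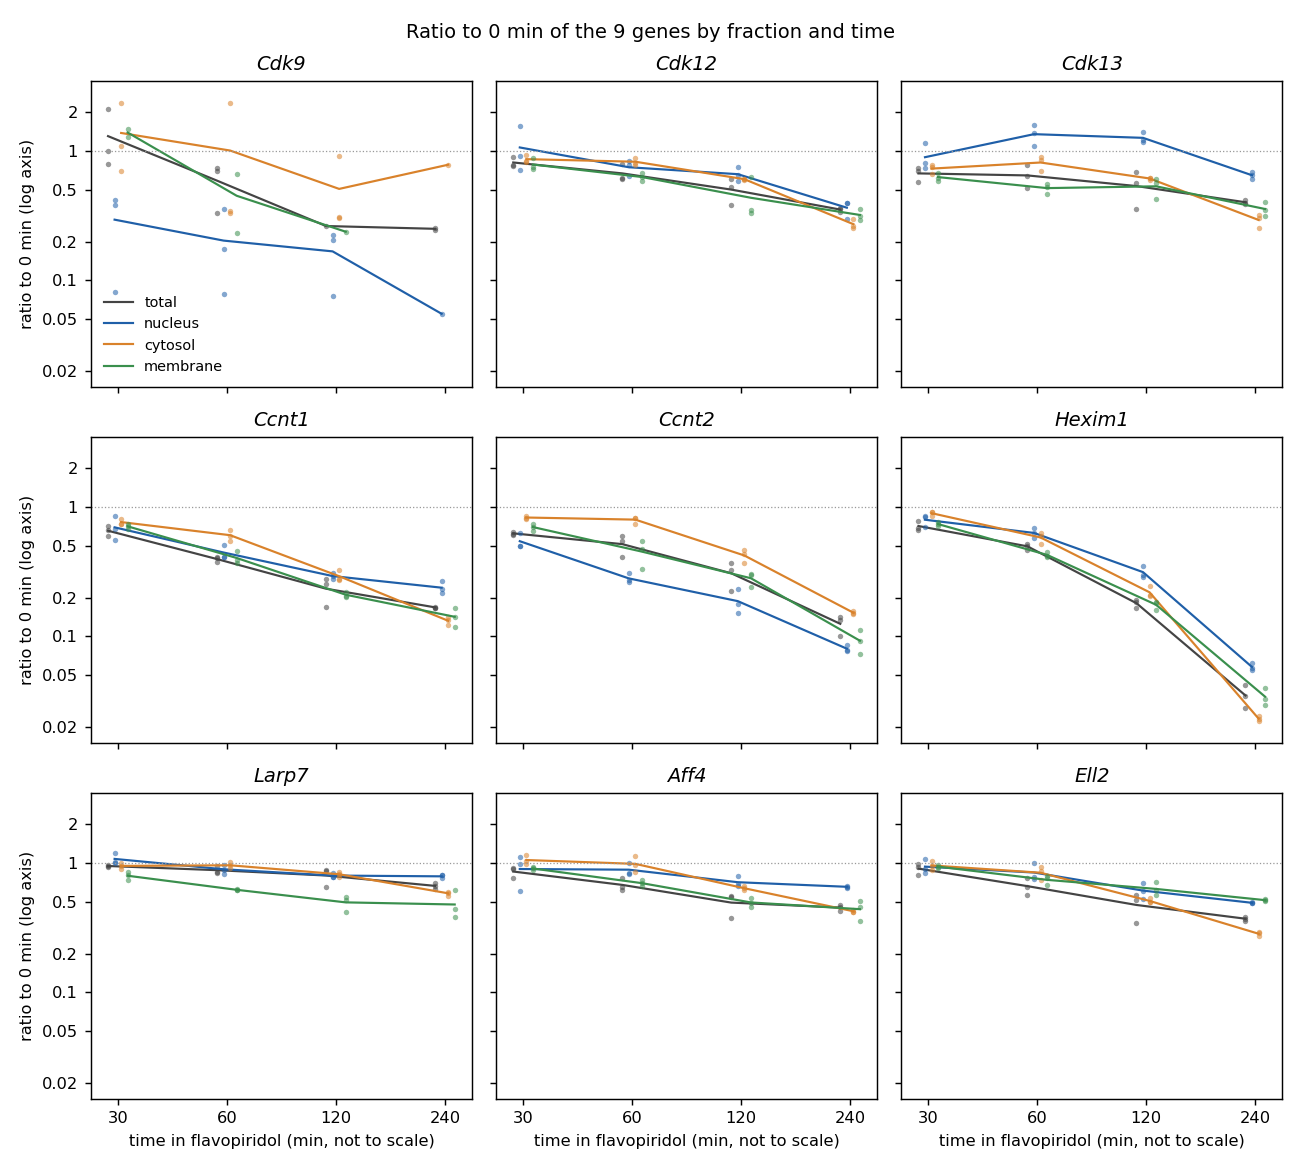
Ratio to 0 min (log axis) of each of the 9 genes against time in flavopiridol, with a point for each replicate library and a line through the mean in each fraction; the dotted line is a ratio of 1. Hexim1 fell to between 2.31% and 5.79% of its 0 min level at 240 min, Larp7 stayed between a mean ratio of 0.480 in the membrane fraction and 0.793 in the nucleus, and nuclear Cdk13 lay above 1 in all 6 libraries of 60 and 120 min; Cdk9 has gaps where it was not listed.

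Changes with time were tested with limma as the slope of log2 ratios per hour, with Benjamini-Hochberg adjustment over all genes listed in the 12 libraries of a fraction. All 8 genes tested fell with time in total, cytosol and membrane fraction, and 7 of 8 fell in the nucleus. Falling was the usual outcome after the block. Among all genes tested, 56.9% fell and 3.39% rose in total, 61.9% fell and 3.32% rose in the nucleus, 67.1% fell and 2.95% rose in the cytosol, and 62.2% fell and 4.09% rose in the membrane fraction. The median slope of the 8 genes was -0.34 log2 per h in total, where the median over all genes was -0.22. It was -0.33 in the nucleus beside -0.30, -0.50 in the cytosol beside -0.28, and -0.32 in the membrane fraction beside -0.26. The authors' scaling rests on long-lived genes, and it sets the direction of the slower changes. When each library was instead centred on its median gene, 5 of 8 fell and Larp7 rose in total, 2 fell and Larp7 and Aff4 rose in the nucleus, 7 fell and Larp7 rose in the cytosol, and 3 fell and 0 rose in the membrane fraction. On that scale 31.0% of all genes fell and 28.8% rose in total, 29.2% and 29.6% in nucleus, 32.4% and 29.4% in cytosol, and 30.9% and 28.3% in membrane, so the nuclear counts of the 8 genes were near the background. Hexim1 and Ccnt2 fell in all 4 fractions on either scale.

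Hexim1, the inhibitor of P-TEFb, had the steepest slope over 30 to 240 min of the 8 genes in each fraction. In the nucleus Ccnt2 was lower up to 120 min. Its means at 30, 60 and 120 min were 0.546, 0.281 and 0.188, beside 0.801, 0.633 and 0.315 for Hexim1. The Hexim1 gene (ENSMUSG00000048878) lies at chr11:103116231-103119725 on the plus strand of GRCm38 and has 1 exon, with no intron. In the cytosol its ratios in replicates 1, 2 and 3 were 0.913, 0.863 and 0.926 at 30 min, 0.632, 0.519 and 0.600 at 60 min, 0.244, 0.209 and 0.206 at 120 min, and 0.0231, 0.0220 and 0.0242 at 240 min. In the nucleus they were 0.710, 0.850 and 0.844, then 0.581, 0.632 and 0.686, then 0.352, 0.301 and 0.291, and finally 0.0622, 0.0547 and 0.0569 at the same times. No 2 time points overlapped within either fraction. In total the 240 min ratios were 0.0280, 0.0419 and 0.0347, and in the membrane fraction 0.0294, 0.0328 and 0.0401. The nuclear libraries at 240 min were thus above those of every other fraction and the cytosolic ones below, without overlap. The slopes were -1.26 ± 0.06 (SE) log2 per h in total, -1.10 ± 0.05 in the nucleus, -1.52 ± 0.04 in cytosol and -1.26 ± 0.05 in membrane, with limma adjusted p of at most 5.98e-08. Only 0.893% of genes in the cytosol and 1.48% in total had a steeper fall, beside 3.99% in nucleus and 1.78% in the membrane fraction. Mean levels at 240 min were 3.49% ± 0.69 (SD, n = 3) of 0 min in total, 5.79% ± 0.38 in the nucleus, 2.31% ± 0.11 in cytosol and 3.41% ± 0.55 in membrane.

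Larp7, which binds and protects 7SK RNA in the same particle, was at the other end of the range. It lies at chr3:127536714-127553349 on the minus strand (ENSMUSG00000027968), and the annotation places the miR-302 and miR-367 genes within it on the opposite strand. In total its ratios were 0.935, 0.974 and 0.950 at 30 min and 0.705, 0.667 and 0.635 at 240 min. In the nucleus they were 1.01, 1.21 and 1.03 at 30 min and 0.806, 0.809 and 0.763 at 240 min. The first and last times did not overlap in either fraction, with means at 240 min of 66.9% ± 3.5 of 0 min in total and 79.3% ± 2.6 in the nucleus. The membrane fraction held the lowest mean ratio, 0.480 ± 0.12 at 240 min, where replicate 3 at 0.617 stood above replicates 1 and 2 at 0.381 and 0.441. Slopes were -0.14 ± 0.03 log2 per h in total, -0.11 ± 0.04 in the nucleus, -0.21 ± 0.02 in cytosol and -0.20 ± 0.05 in membrane. Relative to the median gene the sign turned in all 4, to 0.09, 0.21, 0.07 and 0.07, and the call held in all but the membrane fraction. The nuclear fall on the authors' scale had a limma adjusted p of 0.0275 and did not pass without replicate 2 or 3, with 0.130 and 0.196.

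The cyclins differed from each other mainly in the nucleus. Ccnt1 (ENSMUSG00000011960, chr15:98538689-98570923, minus strand) encodes cyclin T1 and Ccnt2 (ENSMUSG00000026349, chr1:127774164-127808061, plus strand) cyclin T2. At 240 min the nuclear ratios of Ccnt1 were 0.268, 0.215 and 0.232, above its cytosolic ratios of 0.133, 0.140 and 0.123. Ccnt2 was ordered the other way, with nuclear ratios of 0.0854, 0.0782 and 0.0773 and cytosolic ratios of 0.152, 0.157 and 0.148. For both genes the replicates of the 2 fractions did not overlap at that time. Ccnt2 was low in the nucleus from the first time, with 0.501, 0.633 and 0.505 at 30 min where the cytosol had 0.829, 0.857 and 0.814. Ccnt1 at 30 min had 0.559, 0.855 and 0.684 in the nucleus and 0.749, 0.748 and 0.808 in the cytosol, which overlapped. At 60 min nuclear Ccnt1, at 0.413, 0.413 and 0.513, lay below the cytosol, at 0.603, 0.551 and 0.671, as did nuclear Ccnt2. At 120 min the fractions of Ccnt1 overlapped, with means of 0.293 in the nucleus and 0.292 in the cytosol. Slopes of Ccnt1 were -0.52 ± 0.08 log2 per h in total, -0.40 ± 0.07 in the nucleus, -0.73 ± 0.04 in cytosol and -0.62 ± 0.08 in membrane. Those of Ccnt2 were -0.68 ± 0.06, -0.73 ± 0.07, -0.73 ± 0.04 and -0.81 ± 0.06 in the same order. The antisense gene 9330020H09Rik overlaps Ccnt1 and was listed in 48 libraries. The kit keeps strand, but the strand setting of the counting is not given in the sources used here, so reads of the pair may have been split between them.

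The kinase genes Cdk12 and Cdk13 had less steep slopes than both cyclins in total, cytosol and membrane. In the nucleus the slopes of Cdk12 and Ccnt1 were alike, each at -0.40 ± 0.07 log2 per h. Cdk12 (ENSMUSG00000003119, chr11:98203059-98278504, plus strand) had slopes of -0.33 ± 0.05 log2 per h in total, -0.40 ± 0.07 in the nucleus, -0.50 ± 0.03 in cytosol and -0.36 ± 0.06 in membrane. Its means at 240 min lay between 27.2% ± 2.2 of 0 min in the cytosol and 36.6% ± 5.6 in the nucleus. Cdk13 (ENSMUSG00000041297, chr13:17710315-17805097, minus strand) had slopes of -0.22 ± 0.06 in total, -0.41 ± 0.05 in cytosol and -0.21 ± 0.05 in membrane. Its nuclear slope of -0.19 ± 0.08 did not pass, with a limma adjusted p of 0.0577. It passed without the low nuclear library of 30 min, with 0.0210, and among genes listed in all 48 libraries, with 0.0495.

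A straight line described nuclear Cdk13 poorly. Its ratios were 0.805, 1.15 and 0.742 at 30 min, 1.11, 1.38 and 1.59 at 60 min, 1.40, 1.22 and 1.19 at 120 min, and 0.688, 0.613 and 0.655 at 240 min. All 6 libraries of 60 and 120 min were above the 0 min level, and all 3 of 240 min were below every earlier one. The other fractions stayed under 1 in every library, and cytosolic Cdk13 went from 0.734 ± 0.062 at 30 min through 0.818 ± 0.10 at 60 min to 0.294 ± 0.035 at 240 min. Between 30 and 120 min nuclear Cdk13 rose by 0.52 ± 0.19 on the log2 scale (limma adjusted p = 0.0477), and it then fell by 0.96 ± 0.19 to 240 min (adjusted p = 0.00336). The rise did not pass without the low nuclear 30 min library (0.45, adjusted p = 0.0925) or when any 1 replicate was left out, with adjusted p between 0.0776 and 0.256. It also failed with the looser filter, without limma's trend and with the replicate number as a block, at 0.0577, 0.0580 and 0.0795. The genes 8430406P12Rik, Gm48624 and Mir466i lie inside Cdk13 and were listed in 47, 30 and 39 libraries.

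Cdk9 (ENSMUSG00000009555, chr2:32705784-32713076, minus strand) encodes the catalytic subunit and the target of the drug. Its replicates lay far apart. In the 8 groups of fraction and time where all 3 listed it, the highest ratio was between 2.20 and 7.13 times the lowest, with a median of 3.21, where the median for the other 8 genes was 1.18. In total they were 1.01, 0.793 and 2.13 at 30 min, 0.704, 0.335 and 0.737 at 60 min, 0.264 in replicate 1 alone at 120 min, and 0.246 and 0.256 in replicates 2 and 3 at 240 min. In the nucleus they were 0.0814, 0.384 and 0.420 at 30 min, 0.176, 0.0780 and 0.356 at 60 min, 0.223, 0.0753 and 0.205 at 120 min, and 0.0551 in replicate 2 alone at 240 min. The 3 nuclear libraries of 30 min lay below all of those in total at that time. In the cytosol the ratios were 0.701, 1.09 and 2.36 at 30 min, 0.331, 2.36 and 0.347 at 60 min, and 0.307, 0.924 and 0.302 at 120 min, with 0.787 in replicate 2 alone at 240 min. Replicate 2 of the cytosol was the highest at both 60 and 120 min. In the membrane fraction Cdk9 was listed in 2 libraries at 30 min, 2 at 60 min, 1 at 120 min and 0 at 240 min. A slope could be fitted in the nucleus and cytosol over 30 to 120 min only, and it was -0.39 ± 0.50 and -0.92 ± 0.54 log2 per h, with limma adjusted p of 0.565 and 0.186. In those fits no change of Cdk9 mRNA between 30 and 120 min was detectable. They do not cover 0 to 30 min, and the nuclear ratios at 30 min were already at most 0.420. In total and membrane no slope was fitted. Both ratios of total at 240 min lay below all 6 of 30 and 60 min, and both membrane ratios at 30 min, the lower of them 1.29, lay above the 0.234 and 0.670 of 60 min.

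Of the super elongation complex, Aff4 is the scaffold that holds the other subunits and Ell2 is a subunit that raises the elongation rate of polymerase. Aff4 (ENSMUSG00000049470, chr11:53350833-53421830, plus strand) had nuclear ratios of 0.608, 1.12 and 0.983 at 30 min and 0.654, 0.648 and 0.672 at 240 min. Its cytosolic ratios were 0.985, 1.04 and 1.15 at 30 min and 0.422, 0.417 and 0.437 at 240 min. The cytosol thus went from a similar or higher start to a lower end, with no overlap at 240 min. Slopes of Aff4 were -0.25 ± 0.05 log2 per h in total, -0.13 ± 0.05 in the nucleus, -0.39 ± 0.03 in cytosol and -0.28 ± 0.05 in membrane. The nuclear fall was near the threshold (limma adjusted p = 0.0467). It was lost under several settings, among them leaving out replicate 2 (0.267) or 3 (0.255), and relative to the median gene nuclear Aff4 rose by 0.19 log2 per h.

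Ell2 (ENSMUSG00000001542, chr13:75706757-75772364, plus strand) had cytosolic ratios of 0.895, 0.959 and 1.03 at 30 min and 0.293, 0.288 and 0.273 at 240 min. At 240 min the membrane ratios were 0.518, 0.508 and 0.529 and the nuclear ones 0.489, 0.502 and 0.492. All 6 of these lay well above the cytosolic libraries. Slopes of Ell2 were -0.34 ± 0.06 log2 per h in total, -0.26 ± 0.05 in the nucleus, -0.51 ± 0.03 in cytosol and -0.22 ± 0.04 in membrane. Relative to the median gene the nuclear and membrane slopes turned to 0.05 and 0.04, neither of which passed.

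**Figure D2:**
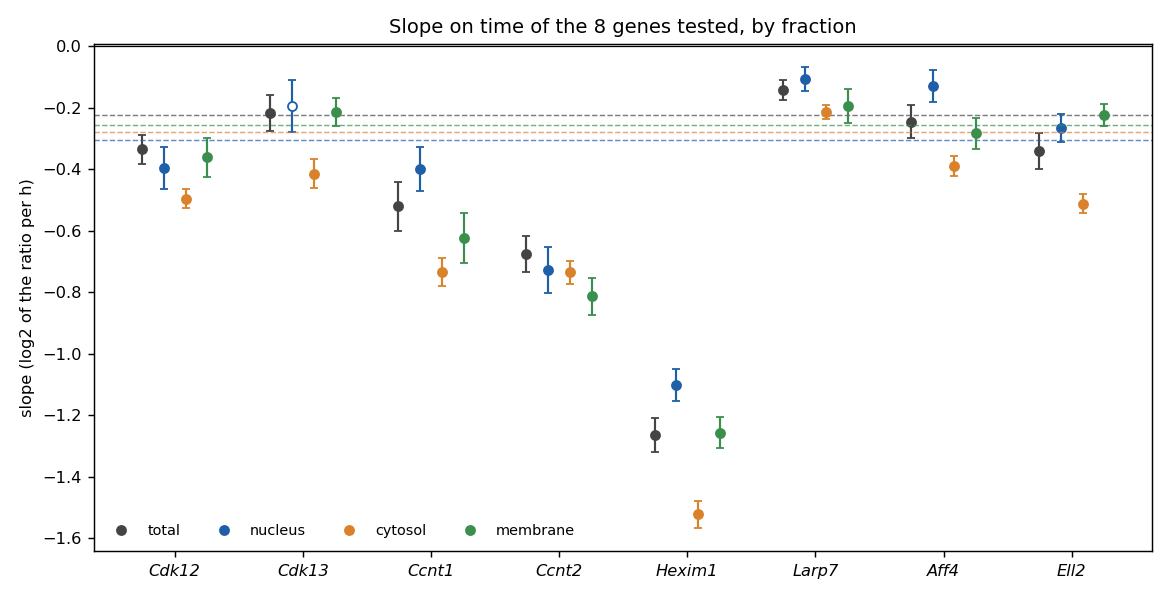
Slope on time (log2 of the ratio per h) for the 8 genes tested, with bars of 1 SE from limma; filled points passed an adjusted p of 0.05, the open point (nuclear Cdk13) did not, and dashed lines mark the median slope of all genes in each fraction. Hexim1 lies lowest in every fraction, from -1.10 to -1.52, and Larp7 lies above the dashed line of its fraction throughout, so its direction turns when libraries are centred on the median gene, as does that of Cdk13 outside the cytosol, of Ell2 in nucleus and membrane, and of Aff4 in the nucleus.

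The order of the genes at 240 min was the same at its low end in 3 fractions. Hexim1 was lowest and Ccnt2 next in total, nucleus and membrane, followed by Ccnt1 and Cdk12. In the cytosol Ccnt1 at 13.2% ± 0.90 lay below Ccnt2 at 15.3% ± 0.47. From Hexim1 up to Cdk12, the replicates of neighbouring genes did not overlap in any of the 4 fractions. Higher in the order they did overlap: Cdk12 and Ell2 in total and cytosol, Ell2 and Cdk13 in the cytosol, Cdk13 and Aff4 in the nucleus, and every neighbouring pair above Cdk12 in the membrane fraction. Larp7 was highest in total, nucleus and cytosol, where it did not overlap with Aff4 below it, and Ell2 was highest in the membrane fraction.

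The time course was then divided into an early part, 120 against 30 min, and a late part, 240 against 120 min. In the early part 6 of 8 genes fell in total, all but Larp7 and Cdk13, where 52.0% of all genes tested fell. In the nucleus 5 fell, namely Ccnt1, Ccnt2, Hexim1, Larp7 and Ell2, where 42.1% of all genes fell, and Cdk13 rose, as did 2.08% of genes. In the cytosol 7 fell beside 48.8% of genes and in the membrane fraction 7 fell beside 52.5%, with Cdk13 the exception in both. On the median-centred scale the early change of Larp7 turned to 0.21 in nucleus and 0.26 in the cytosol, and that of Ell2 to 0.01 in both nucleus and membrane. Without replicate 2 or without replicate 3, 3 of 8 genes changed in the nucleus in place of 6. Over all genes, 5624 lower and 277 higher of 13343 became 1965 and 143 of 13897 without replicate 2. Without replicate 3 they were 1817 and 111 of 13902.

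In the late part 8 of 8 genes fell in the cytosol, beside 47.9% of all genes. In total 2 fell, Hexim1 with a log2 change of -2.39 ± 0.18 and Ccnt2 with -1.28 ± 0.23, where 29.2% of genes fell. Without the low total library of 120 min, 7 of 8 passed, all but Aff4 (-0.29, limma adjusted p = 0.0874). Over all genes, 4502 of 12873 then fell and 696 rose. In the nucleus 4 fell beside 34.3% of genes, namely Hexim1, Ccnt2, Cdk13 and Cdk12, and 2 did without replicate 2 or 3. Of all genes, 1987 of 13897 fell there without replicate 2 and 1518 of 13902 without replicate 3. In the membrane fraction 5 fell beside 37.6%, namely Hexim1, Ccnt2, Ccnt1, Cdk13 and Ell2, and between 2 and 3 passed when 1 replicate was left out. Over all genes, 2947 of 12830 fell without replicate 1, 3788 of 12809 without replicate 2 and 3399 of 12944 without replicate 3. On the median-centred scale the late change of Larp7 in the cytosol turned to 0.01 and that of Ell2 in the membrane fraction to 0.09. Hexim1 fell further late than early in every fraction. In the cytosol the log2 change was -2.04 ± 0.13 over the early part and -3.25 ± 0.13 over the late part, which was the longer one.

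Whether a gene fell at different rates in different fractions was tested with limma as the difference between slopes over the 24 libraries of a pair of fractions. These libraries were taken as independent, although the fractions of a harvest come from the same cells. Between nucleus and cytosol 4 of 8 genes differed, all with the slower fall in the nucleus, where 20.6% of all genes tested differed in either direction. They were Hexim1 by 0.42 ± 0.06 log2 per h (limma adjusted p = 1.02e-04), Ccnt1 by 0.34 ± 0.08 (0.00688), Aff4 by 0.26 ± 0.06 (0.00487) and Ell2 by 0.25 ± 0.05 (0.00245). The median difference of the 8 genes was 0.23, where that over all genes was 0.03. The smallest was that of Ccnt2, at 0.01 ± 0.08, and Cdk12, Larp7 and Cdk13 had 0.10 ± 0.07, 0.11 ± 0.04 and 0.22 ± 0.10. Without replicate 1 or without replicate 3, 2 of 8 passed. Among all genes, 684 had a lower and 546 a higher nuclear slope of 11591 tested without replicate 1. Without replicate 3 these were 194 and 319 of 11674. Hexim1 passed each time, and Aff4 failed without replicate 3 (limma adjusted p = 0.0624). Ell2 failed without replicate 1 (0.0567) and Ccnt1 without either (0.0983 and 0.107). Over 30 to 120 min Hexim1 alone of the 4 passed, at 0.45 ± 0.12 (adjusted p = 0.0357). In that window 531 of all 11941 genes passed with a lower nuclear slope and 370 with a higher one. Adding a pseudocount of 0.1, several times the cytosolic ratio of Hexim1 at 240 min, reduced its difference to 0.13 (adjusted p = 0.0848).

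Between membrane and cytosol 2 of 8 genes differed, where 6.70% of all genes did. Ell2 fell more slowly in the membrane fraction by 0.29 ± 0.05 log2 per h (limma adjusted p = 3.03e-04), and this held without each replicate in turn but not over 30 to 120 min only, where it was 0.26 ± 0.10 (adjusted p = 0.153). Hexim1 fell more slowly there by 0.27 ± 0.06 (0.00590), which no longer passed when any 1 replicate was left out, with adjusted p from 0.0690 to 0.173. Over 30 to 120 min the difference of Hexim1 was 0.00 with the opposite sign. Between nucleus and membrane 0 of 8 differed, where 8.35% of all genes did. The differences of Ccnt1, Hexim1 and Aff4, each with the higher slope in the nucleus, had limma adjusted p of 0.207, 0.150 and 0.201. These 3 genes passed only when libraries were centred on the median gene. On that scale 864 of all 11643 genes tested passed with a lower slope in the nucleus and 1142 with a higher one. Nucleus against cytosol and membrane against cytosol share the cytosolic libraries.

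**Figure D3:**
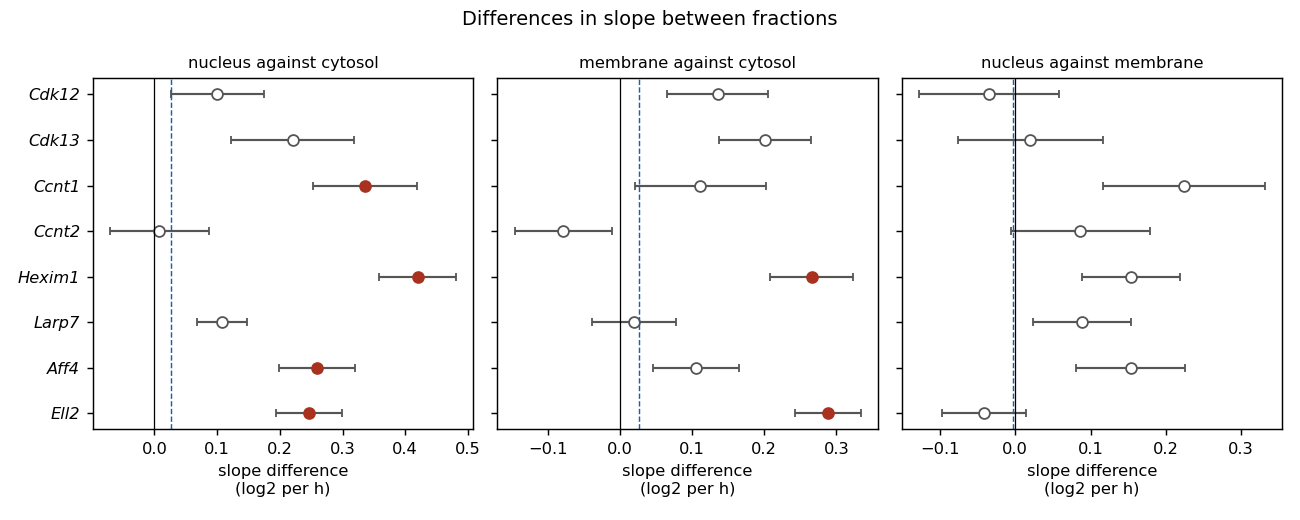
Difference in slope between fractions (log2 per h, first fraction minus second) for the 8 genes tested, with bars of 1 SE from limma; red points passed an adjusted p of 0.05, open points did not, and the dashed line is the median over all genes. Hexim1, Ccnt1, Aff4 and Ell2 pass in the first panel, from 0.25 to 0.42, Ell2 and Hexim1 in the second, and 0 in the third.

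A half-life was fitted to the ratios of each fraction as a single exponential with a free starting level, and its error is the SD over fits to the 3 replicate series. In a fraction it describes the net decline of the level. Decay, movement out and RNA still arriving from other compartments are not separated, so it is not the time an RNA spends there. Hexim1 had 48.4 ± 4.1 min in total, 65.3 ± 9.6 in the nucleus, 44.9 ± 3.2 in cytosol and 41.6 ± 1.7 in membrane. In the cytosol 4.35% of genes had a shorter one. Ccnt1 followed with 73.0 ± 6.8 min in total, 72.5 ± 6.3 in cytosol and 54.9 ± 7.3 in membrane, and its nuclear fits ranged from 67.9 to 165 min among replicates. Ccnt2 had its shortest value in the nucleus, 54.3 ± 17 min, and 89.4 ± 19 in total. Its nuclear value was below that of Hexim1, though Hexim1 had the steeper nuclear slope, and the replicate fits of the genes overlapped. These cyclin and Hexim1 values were well under the medians over all genes, which were 244 min in total, 176 in the nucleus, 213 in cytosol and 219 in membrane.

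Ell2 had 142 ± 4.5 min in total, 111 ± 13 in cytosol and 240 ± 10 in membrane, with no overlap between the replicate fits of the last pair. Cdk12 had 163 ± 9.1 min in total and 136 ± 13 in the cytosol. Aff4 had 201 ± 9.5 and 146 ± 13, and Cdk13 had 274 ± 61 and 172 ± 28. Larp7 was the longest, with 416 ± 53 min in total and 292 ± 57 in the cytosol. Of the 8 genes, 6 were under the median of all genes in total, 4 in the nucleus, 7 in cytosol and 5 in membrane. The lengths themselves rest on the authors' scaling. With libraries centred on the median gene, the median half-life of the 8 genes went from 152 to 533 min in total. It went from 123 to 283 min in cytosol, from 159 to 1607 in membrane and from 172 to no finite value in the nucleus. The numbers under the median of all genes stayed at 6, 7, 5 and 4 in that order, but this is no check. Centring hardly moves the order of genes, and the median over all genes then had no finite value in any fraction. The nuclear values of Aff4 are the least certain, because replicate 1, which includes the low 30 min library, gave 2199 min and the others 284 and 304 min. Membrane Larp7 was as uneven, with 198, 181 and 926 min. Fits to 30, 60 and 120 min only moved several of the longer values by more than 1.5 times, such as total Aff4 to 111 min and nuclear Larp7 to 212 min.

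**Figure D4:**
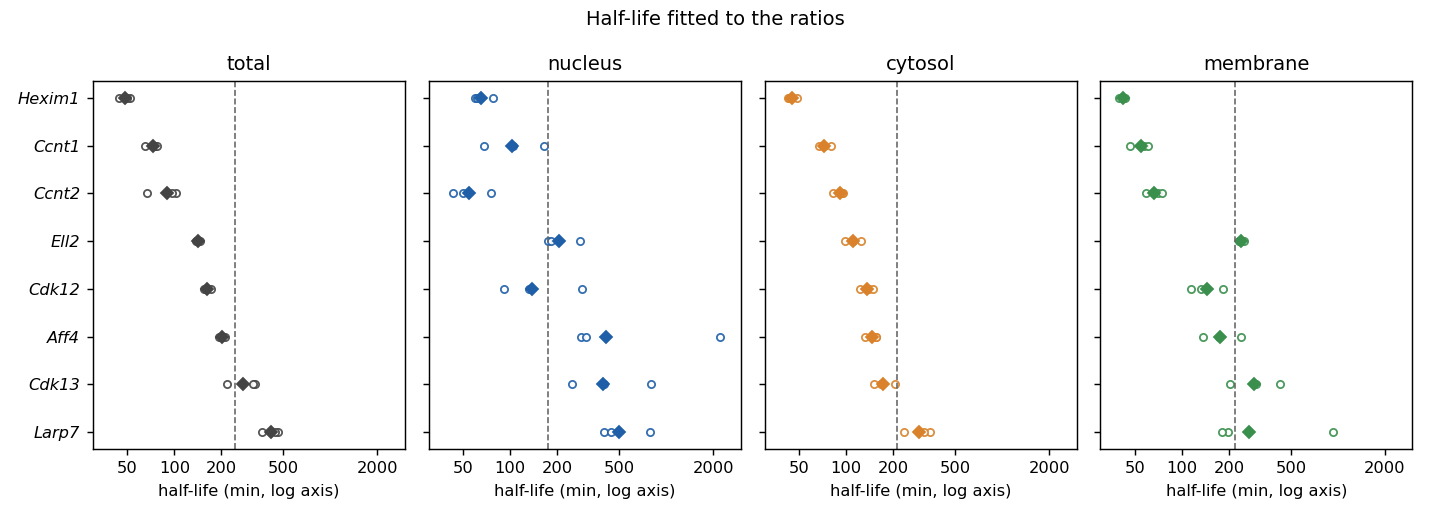
Half-life (min, log axis) of the 8 genes in each fraction, with a filled diamond for the fit to all libraries, open circles for the fit to each replicate series and a dashed line at the median of all genes. Hexim1, Ccnt1 and Ccnt2 lie left of the dashed line in all 4 panels, and the circles spread most for nuclear Aff4, with 1 replicate at 2199 min.

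The genes also differ in features that the choice of genes did not use. Hexim1 spans 3.495 kb and is the shortest of the 9, with 9.04% of protein-coding genes shorter, and Cdk9 follows with 7.293 kb. Cdk13 is the longest with 94.783 kb, Cdk12 has 75.446, Aff4 70.998 and Ell2 65.608 kb, all above the median gene length of 24.53 kb. The 3′ untranslated regions, which often carry the elements that set the stability of an mRNA, ran from 240 bases in Larp7 to 6315 in Aff4, with a median over genes of 1079. They were searched on the mRNA strand for a pair of elements known from mRNA decay. One is TTATTTATT, the core of strong AU-rich elements, which contains the shorter ATTTA, and the other is TGTANATA, the site of Pumilio proteins, where N is any base. In all, 7.50% of genes hold the first and 25.5% the second. The windows are shown for the 5 genes with a match, from the GENCODE M21 transcripts on GRCm38, written 5′ to 3′ in the sense of the mRNA with the matched element in capitals.
Hexim1, chr11:103118052-103118081, plus strand: ttatatacatgTGTATATAagacagcggac
Ccnt1, chr15:98541627-98541656, minus strand: gtgtatgtgtgTGTATATAtgtatacacat
Ccnt2, first match, chr1:127803982-127804011, plus strand: gtggagaaaaaTGTACATAcatttttgtat
Ccnt2, second match, chr1:127805132-127805161, plus strand: tatgttgtggtTGTAAATAttagagttgag
Aff4, chr11:53421780-53421809, plus strand: ctggaactcacTGTATATAcctggttgtcc
Aff4, first match, chr11:53419037-53419066, plus strand: tatttccacaTTATTTATTaaattgatcta
Aff4, second match, chr11:53421687-53421716, plus strand: atgtacactaTTATTTATTtttactattta
Ell2, chr13:75770825-75770854, plus strand: aaactaaagcTTATTTATTtaaaattccag

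The 3 genes with the shortest half-lives in total, Hexim1, Ccnt1 and Ccnt2, each held at least 1 TGTANATA and 0 TTATTTATT. Aff4, with 201 min, also held 1 TGTANATA. The 3′ untranslated regions of Ccnt1 and Ccnt2 have 4522 and 4502 bases, longer than those of 95.4% and 95.3% of genes. Longer regions offer more places for a match, and the share among genes of like length was not computed. The AU-rich nonamer was found in Aff4 and Ell2, which fell more slowly than these 3 in total. The shorter ATTTA was present 21 times in Aff4, 14 in Ccnt2, 7 in Ell2, 5 in Ccnt1, 3 in Hexim1 and Cdk12, 1 in Cdk13 and Larp7 and 0 times in Cdk9. Per kb it was most frequent in Ell2 at 4.46 and Larp7 at 4.17, beside 1.73 in Hexim1 and a median over genes of 1.3. The value of Larp7 rests on 1 match in a region of 240 bases. A match describes these letters and is no evidence of binding. The absence of one says only that the letters are not in the 3′ untranslated region of the transcript used.

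The wider machinery was described by a list of 47 genes of the 7SK particle, the elongation complexes, pausing, P-TEFb recruitment, other kinases and phosphatases of polymerase, and elongation factors. Of these, 36 were listed in all 48 libraries. In total 30 of 38 tested fell beside 56.9% of all genes, in the nucleus 27 of 39 beside 61.9%, in the cytosol 36 of 37 beside 67.1% and in the membrane fraction 29 of 37 beside 62.2%, with 0 rising on the authors' scale. Relative to the median gene the counts were 17 falling and 8 rising in total, 14 and 11 in nucleus, 20 and 8 in the cytosol and 14 and 5 in the membrane fraction, where between 29.2% and 32.4% of all genes fell and between 28.3% and 29.6% rose. The median slope of the list was -0.29 log2 per h in total beside -0.22 over all genes, -0.29 in the nucleus beside -0.30, -0.41 in cytosol beside -0.28 and -0.31 in membrane beside -0.26. The nuclear values of the list were thus near those of all genes. All 13 elongation factors fell in the cytosol, where 67.1% of genes did, and 7 of 13 in the nucleus, where 61.9% did.

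Other genes of the 7SK particle also fell steeply. Mepce, the enzyme that caps 7SK RNA, had the steepest slope of the list in each fraction, -1.68 ± 0.10 log2 per h in total, -1.60 ± 0.08 in the nucleus, -1.70 ± 0.08 in cytosol and -1.36 ± 0.12 in membrane, steeper than Hexim1 in all 4. Hexim2, the paralog of Hexim1, had -0.97 ± 0.22 in total, -0.99 ± 0.17 in nucleus and -1.34 ± 0.25 in the cytosol, and was not listed in all membrane libraries. Jmjd6, a lysyl hydroxylase of the Jumonji family, had -0.94 ± 0.04 in total, -1.08 ± 0.06 in the nucleus, -1.07 ± 0.05 in cytosol and -1.05 ± 0.05 in membrane. Each of these slopes passed with limma, with adjusted p of at most 0.00230. In the membrane fraction the third steepest was Ctdp1, a phosphatase of the polymerase tail, with -0.85 ± 0.05.

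At the slow end, none of the 3 highest slopes in total passed: Tcea1, the elongation factor that rescues arrested polymerase, at 0.10 ± 0.06, Ccnc, the cyclin of the Mediator kinases, at 0.07 ± 0.08, and Mnat1, a subunit of the kinase of initiation, at 0.00 ± 0.05. In the membrane fraction Ccnc had 0.04 ± 0.04, Mnat1 -0.06 ± 0.06 and Cdk11b -0.06 ± 0.12, also not passing. In the nucleus they were Rpap2 at 0.09 ± 0.09, Aff1, a relative of Aff4, at 0.04 ± 0.22, and the elongation factor Iws1 at 0.04 ± 0.08. In the cytosol Mnat1 and Ssu72 fell by 0.08 ± 0.03 and 0.09 ± 0.03, and Ccnc had -0.02 ± 0.05. Several genes of the machinery were listed in fewer libraries than Cdk9: Supt5 and Eaf2 were listed in 12 libraries, Aff1 in 21, Nelfe and Rbm7 in 6 and Ell3 in 5, and Aff3, Nelfcd and Ccnk were not analysed here.

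The genes most like each of the 8 were taken as those with the smallest root mean square difference over the 16 mean log2 ratios of fractions and times, among 8601 genes. For Hexim1 they were Rpusd2, Ing2 and Kti12, at 0.27, 0.28 and 0.29. For Ccnt1 they were Zfp418, Pramel1 and Sik1, from 0.21 to 0.24, and for Ccnt2 Rfxank, Platr4 and Hmgxb3, from 0.24 to 0.26. Cdk12 was closest to Prpf18, Xpnpep3 and Cep120, all at 0.13, and Cdk13 to Pcm1, Cd247 and Tgm3, from 0.22 to 0.24. Larp7 had the closest neighbours, Acat2, Frg1 and Cs, all at 0.10. Aff4 was closest to Timm17a, Isg20l2 and Npr3, from 0.12 to 0.14, and Ell2 to Dstyk, Eml5 and Scrn3, from 0.16 to 0.18. Among the 8 genes themselves, Aff4 and Ell2 were the closest pair at 0.25 and Hexim1 and Larp7 the farthest at 2.28.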

How the data were processed

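The data comprise 48 polyA RNA-seq libraries (TruSeq Stranded mRNA) with groups and replicate numbers taken from the sample titles. The authors aligned reads to mm10 with STAR 2.7.6 and counted them with RSEM 1.3.3 (versions from the submitters' processing notes), scaled libraries on genes with long half-lives, and divided by the 0 min level. The deposited values are therefore each a ratio to 0 min, although their header names normalized read counts. The last time is 240 min by the titles but 180 min by the protocol, and the former was taken.

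From these ratios log2 values without a pseudocount entered limma (version 3.58.1, R 4.3.3, two-sided tests moderated along the mean trend), restricted to genes that every library of the fraction or pair of fractions lists. Calls were made at a Benjamini-Hochberg adjusted p of 0.05. Half-lives are least-squares fits of a single exponential (Python 3.11.15). The limma fits were tested on simulated data. In total, a slope of 0.4 log2 per h was recovered for 53.0% of 200 changed genes among 12762. A slope difference of 0.4 between nucleus and cytosol was recovered for 36.5% of 200 among 11232. For a change of 1 log2 between 2 times in total it was 38.5% of 200 among 12762. Of the unchanged genes, 8, 2 and 4 were called. In the data far more genes passed, 7262 falling and 432 rising in total. The adjusted threshold was therefore stricter in the simulation, and these shares do not measure recovery in the data. The genes, the pathway list and the tests were chosen with earlier results of these data known. All 9 genes are named, together with the 3 lowest and 3 highest slopes of the pathway list per fraction and the 3 nearest genes of each of the 8. Gene positions and sequences come from GENCODE M21 on GRCm38, which may differ from the release the authors used. Alternatives covered the pseudocount, the filter, the library scaling, limma's trend, blocks of replicate number and of harvest, the window and last time, the starting level, each replicate and the 2 low libraries.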

Additional observations from a re-analysis of the deposited data

Results flagged for a closer look

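The slopes of 4 genes differed between nucleus and cytosol in the test of the difference itself (limma, adjusted over all genes): Hexim1 by 0.42, Ccnt1 by 0.34, Aff4 by 0.26 and Ell2 by 0.25 log2 per h, each with the slower fall in the nucleus. Between membrane and cytosol the same test picked out Ell2, at 0.29, and Hexim1, at 0.27. Both tests use the cytosolic libraries. Groups of 3 are too small for a check of outlying samples.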

How the results depend on the processing

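The scaling of the libraries mattered most. When libraries were centred on the median gene, those of the 8 genes falling with time were 5 in total, 2 in nucleus and 3 in the membrane fraction, and the rising ones were 1, 2 and, in the cytosol, 1. The pathway counts became 17 falling and 8 rising in total, 14 and 11 in nucleus, 20 and 8 in the cytosol, and 14 and 5 in the membrane fraction. Early and late changes in the membrane fraction passed for 4 and 2 genes. Of all 12408 genes tested there, 2378 fell and 2291 rose early, and 2830 fell and 2239 rose late. Nucleus and membrane differed for 3 of the 8 genes. Among all 11643 genes tested between nucleus and membrane, 864 passed with a lower and 1142 with a higher nuclear slope. On that scale slopes changed sign for Larp7 in total, nucleus, cytosol and membrane (0.0860, 0.21, 0.0668 and 0.0657 log2 per h), Cdk13 in total, nucleus and membrane (0.0129, 0.12 and 0.0467), Ell2 in nucleus and membrane (0.0510 and 0.0376) and nuclear Aff4 (0.19). Changes between times did so early for Larp7 in nucleus and cytosol (0.21 and 0.26) and Ell2 in nucleus and membrane (0.0108 and 0.0142), and late for cytosolic Larp7 (0.0134) and membrane Ell2 (0.0857). On ribosomal protein genes, 5 genes changed late in total, where 4458 of all 12762 genes fell and 543 rose. Over 30 to 120 min only, nuclear pathway genes were 11 falling and 2 rising, where 5669 of all 14320 genes fell and 220 rose. Slope differences passed for 1 gene between nucleus and cytosol, 0 between membrane and cytosol and 1 between nucleus and membrane. Over all genes, 531 lower and 370 higher of 11941 passed in the first pair. In the second it was 442 and 223 of 11813, and in the third 447 and 423 of 12370. In that window nuclear Cdk13 turned to 0.29 and the Hexim1 difference between membrane and cytosol to -0.0045. Membrane and cytosol differed for 1 gene with a pseudocount of 0.1 and with 180 min as last time, and nucleus and membrane for 1 with a harvest block. Over all genes, 151 lower and 378 higher of 11086 passed with the pseudocount and 177 and 469 with 180 min. With the harvest block 727 and 218 of 11643 did.

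With 1 replicate left out, the genes that differed were 2 to 4 between nucleus and cytosol and 1 between membrane and cytosol. Those changing late were 1 to 7 in total, 2 to 3 in the nucleus and 2 to 3 in the membrane fraction, and early 3 to 6 in the nucleus. Calls over all genes moved as well. Late in total, 3723 lower and 756 higher of 12762 became 1579 and 287 of 13246 without replicate 3. Without replicate 1 they were 3949 and 640 of 13239. Early in the nucleus, 5624 lower and 277 higher of 13343 became 1817 and 111 of 13902 without replicate 3. Between nucleus and cytosol, 932 lower and 1377 higher of 11232 became 194 and 319 of 11674 without replicate 3. Without the low total library of 120 min, left out after seeing the data, 7 changed late in total. Of all 12873 genes then tested, 4502 fell and 696 rose. Same-numbered libraries deviated together only weakly: of 72 pairs within a fraction, 6 had deviations correlated above 0.1. Of 72 pairs at the same time in different fractions 5 did, with a median of 0.04 and a highest value of 0.25. The fractions of a harvest come from the same cells, which the main tests between fractions did not model. With a harvest block, the 6 slope differences that passed kept their call. With the replicate block, no count moved by more than 1.5 times. The early nuclear rise of Cdk13 (limma adjusted p = 0.0795) and the early cytosolic fall of Larp7 (0.0552) no longer passed. Each replicate number occurs at every time in every fraction, so this block can change errors but not the estimates. Of 293 half-lives recomputed, 94 moved by more than their spread between replicates, among them all 22 that stayed finite on the median-centred scale. Depth is unknown, so no limit from counting could be set.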
